A study of Mus musculus with 68 samples.

Results

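The genes described are 55 mouse genes of bone morphogenetic protein (BMP) and transforming growth factor beta (TGF-beta) signalling, taken by symbol from the 27179 Entrez identifiers of the count table. All 55 were found in the table and all 55 passed the filter on low counts. They comprise 14 ligands, 12 receptors, 8 Smads, 5 extracellular antagonists and binding proteins, 7 intracellular and decoy regulators, 4 latent TGF-beta binding proteins and 5 target genes. RNA was sequenced from mesenchymal stromal cells that had been grown from mouse long bones and released with trypsin, and the 4 technical replicates of each culture were summed. All mice carried Prrx1-Cre, a recombinase driven by a regulatory element active in limb bud mesenchyme. Het cultures came from mice with 1 floxed and 1 intact allele of Ezh2 (Ezh2 fl/+), and WT cultures from Ezh2+/+ mice that carried the same Cre. WT 3M held 4 cultures from mice aged 3 months (S3, S4, S5 and S12) and Het 3M held 3 (S8, S10 and S14). At 12 months of age, S1, S9, S11, S15, S16 and S17 made up the 6 cultures of Het 12M, while the 4 cultures of WT 12M were S2, S6, S7 and S13. Values below are listed in that order within a group.

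Ligands of this family are secreted dimers that bring together type I and type II serine/threonine kinase receptors. TGF-beta and activin receptors mainly phosphorylate Smad2 and Smad3, and BMP receptors mainly phosphorylate Smad1, Smad5 and Smad9. Both sets pair with Smad4 and enter the nucleus, while Smad6 and Smad7 inhibit the receptors. TGF-beta is stored in the matrix in a latent complex with latent binding proteins. In skeletal stromal cells BMPs are known as inducers of bone and cartilage, and TGF-beta as a factor held in bone matrix. Ezh2 encodes the catalytic subunit of Polycomb repressive complex 2, a histone H3 methyltransferase.

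Levels are TMM-scaled CPM, counts relative to library size after correction for composition with trimmed means of log ratios. Library depth ran from 13687876 to 28597221 counts. At 3 months Ezh2 was 12.6 ± 2.33 CPM in WT (mean ± SD, n = 4) and 11.1 ± 2.29 CPM in Het (n = 3), and at 12 months 19.8 ± 12.3 CPM in WT (n = 4) against 17.8 ± 5.52 CPM in Het (n = 6). The log2 difference of Het from WT was −0.19 ± 0.42 (SE) at 3 months and −0.16 ± 0.35 at 12 months, so the table showed no reduction of Ezh2 beyond its error. The counts are per gene, and a floxed exon could not be examined apart from the rest of Ezh2. Libraries S6, S9 and S15, all from mice aged 12 months, stood apart in cell type markers. The summed level of 10 macrophage markers was 37150 CPM in Het 12M S9 and at most 2614 CPM elsewhere, and that of 10 Schwann and neural markers was 1309 CPM in WT 12M S6 and at most 114.9 CPM elsewhere. In S6 the largest of the Schwann and neural markers were Ngfr at 722 CPM and Sox10 at 231 CPM. S100b, at 13.1 CPM in S6, and Gfra3, at 0.336 CPM, lay within the range of the other libraries. The 10 stromal markers summed to 6050 CPM in Het 12M S15 and to between 9937 and 33080 CPM in the others. In S15 Col1a1, Col1a2 and Prrx1 were the lowest of all libraries, at 1504, 1662 and 171 CPM. The other stromal markers in S15, such as Pdgfra at 186 CPM, lay within the range of the other libraries. Epcam, which defines epithelium, was at 0 in 13 of 17 libraries and at most at 0.402 CPM in the rest. Xist, Y-linked genes or both went against the labelled sex in each WT 12M library (4 of 4) and in 0 of the 13 others. WT 12M S7, labelled female, had both Xist (81.6 CPM) and Y-linked genes (a mean of 35 CPM over those measured). WT 12M here means the libraries that carry that label. In such bulk cultures, fewer cells of a type and less RNA per cell cannot be told apart.

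None of the 55 genes passed the threshold, an adjusted p of 0.05 over all 14897 genes tested with edgeR's quasi-likelihood test, in any of 5 comparisons. Of all genes, 0% were called between Het and WT at 3 months, 0.0671% (10 genes, all lower in Het) between Het and WT at 12 months, 0% between 12 and 3 months in WT, 0% between 12 and 3 months in Het, and 0% for the genotype by age interaction. The interaction is the Het minus WT difference at 12 months minus that at 3 months. The directions and sizes below are therefore descriptions of these cultures.

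At 3 months, 42 of the 55 genes had a lower fitted level in Het and 13 a higher one, a share lower of 76.4% against 52.5% of all genes. Their median log2 difference was −0.29, against −0.02 over all genes. An unadjusted p under 0.05 was found for 5 of the 55 (9.09%), against 2.03% of all genes. These were Bambi, higher in Het, and Tgif1, Bmp6, Tgfbr1 and Skil, lower in Het, and the smallest adjusted p among the 55 was 1. The Het 3M and WT 3M values did not overlap for 9 of the 55 genes (16.4%), against 6.78% of all genes. Those 9 were Bambi, with all Het 3M cultures above all WT 3M cultures, and Bmp6, Tgfbr1, Bmpr1b, Acvr2a, Eng, Tgif1, Skil and Id4, with all below. Bambi, Tgif1, Bmp6 and Tgfbr1 had been named in earlier results of these data when the 55 genes were chosen. The shares of 9.09% and 16.4% include them and are not independent of that choice.

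At 12 months, 32 genes had a lower fitted level in Het and 23 a higher one, a share lower of 58.2% against 44.4% of all genes. The median was −0.07, against 0.05 over all genes. An unadjusted p under 0.05 was found for 8 of the 55 (14.5%), against 9.52% of all genes: Fst, Tgfbr2 and Id4, higher in Het, and Ltbp4, Bambi, Smad3, Bmp3 and Gdf10, lower in Het. The Het 12M and WT 12M values overlapped for all 55 genes, while 1.32% of all genes had values that did not. Without S6, S9 and S15 the median of the 55 genes was 0.14, with 21 lower and 34 higher where 48.2% of all genes were higher, so the sign of the median at 12 months turned on those libraries.

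Between 12 and 3 months in WT, 38 of the 55 genes had a lower fitted level at 12 months, or 69.1% against 46.2% of all genes. The median log2 difference was −0.30, against 0.04 over all genes. There were 7 (12.7%) with an unadjusted p under 0.05, against 9.57% of all genes: Bambi and Tgfbi, higher at 12 months, and Fst, Id4, Bmp5, Eng and Fstl1, lower. Values did not overlap between the ages for Bmp5, Tgfbr1, Bmpr2, Eng, Bambi and Id4, or 10.9% of the 55 against 8.1% of all genes. In Het, 34 genes had a lower fitted level at 12 months, or 61.8% against 42.2% of all genes, with a median of −0.13 against 0.07. Smad3, Gdf10 and Tgif1 had an unadjusted p under 0.05 and were also the only 3 of the 55 whose values did not overlap between the ages, and their share (5.45%) lay beside 4.16% and 1.91% of all genes by those rules. These comparisons share groups: WT 3M enters both the first and the third, and WT 12M both the second and the third.

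For the genotype by age interaction, 7 of the 55 genes (12.7%) had an unadjusted p under 0.05, against 6.61% of all genes. The interaction was negative for Bambi and positive for Fst, Tgif1, Id4, Tgfbr1, Fstl1 and Eng. It was below 0 for 26 of the 55 genes (47.3%) and for 43.8% of all genes. The median over the 55 genes was 0.09, against 0.08 over all genes. By group medians, WT 3M was the highest of the 4 groups for 34 of the 55 genes and Het 12M for 2. No such count over all genes stands beside these, so they do not set the 55 genes apart.

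**Figure D1:**
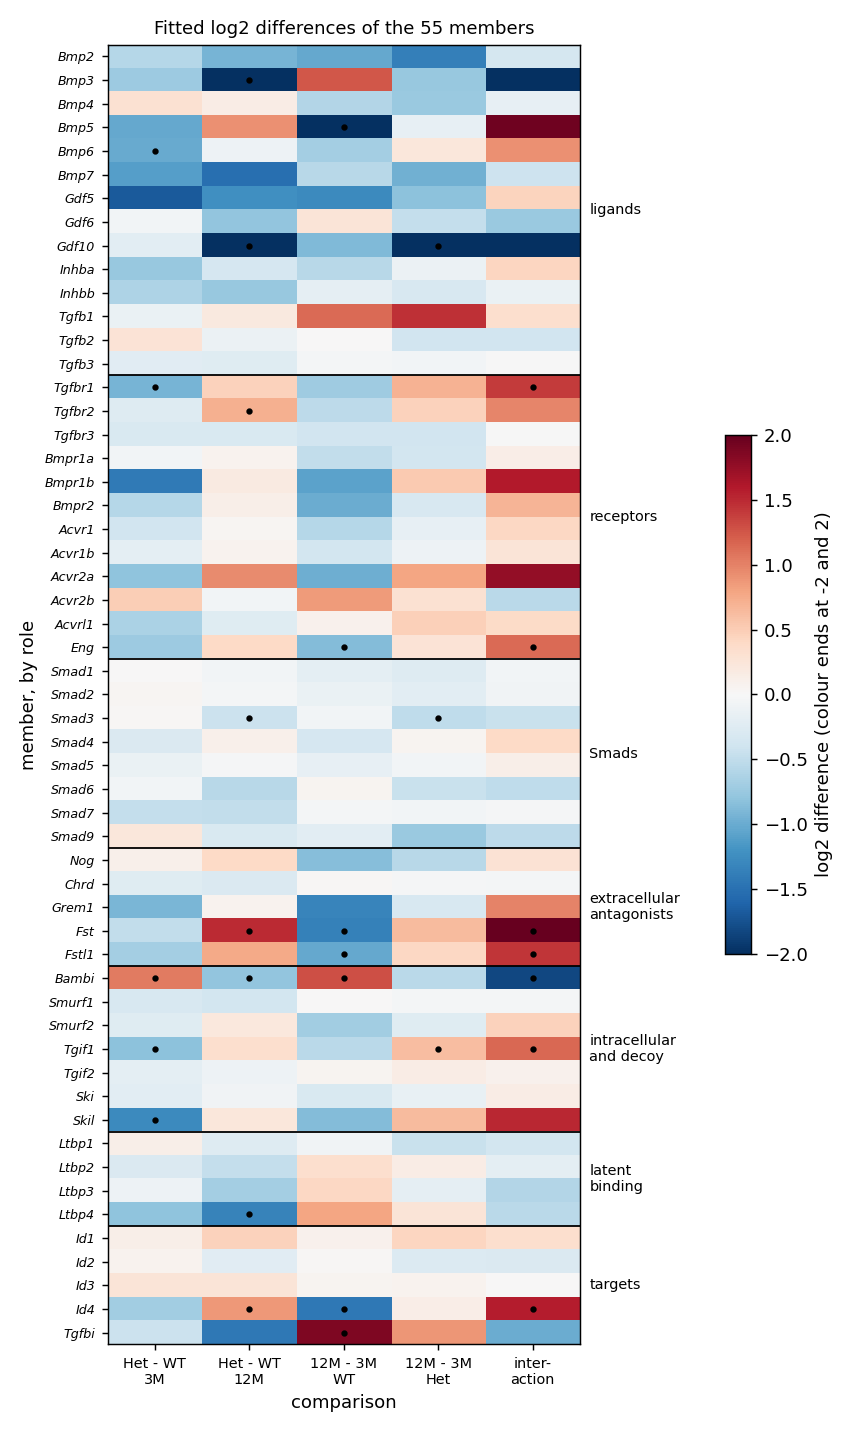
Fitted log2 differences of the 55 genes (rows, by role) in the 5 comparisons (columns), with red for a positive and blue for a negative difference and the colour ending at −2 and 2. A dot marks an unadjusted p under 0.05; 42 of the 55 cells are below 0 in the first column, and no gene passed the threshold on adjusted p in any column.

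Among the ligands, Bmp4, a BMP that induces bone formation, had the highest median level per length, at 95.6 RPKM, which is the CPM per kilobase of exon. The lowest were Gdf5 at 0.333, Bmp2 at 0.154, Bmp7 at 0.0849 and Bmp3 at 0.0222 RPKM. Tgfb3, a TGF-beta isoform, followed Bmp4 at 71.0 RPKM. Bmp4 was 222, 126, 207 and 363 CPM in WT 3M, 280, 286 and 283 in Het 3M, and 229, 79.8, 208 and 96.9 in WT 12M, and in Het 12M it ran from 51.9 through a median of 182 to 299. Its groups overlapped in each comparison of genotypes or ages, while all Het 3M cultures lay above all WT 12M cultures. Its largest log2 difference, 12 against 3 months in Het, was −0.74 ± 0.45 with an unadjusted p of 0.121.

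Bmp6 (Entrez 12161, chr13:38345716-38500314, positions here and below from RefSeq on GRCm38.p6), a BMP of the group that also holds Bmp5 and Bmp7, was 11.5, 14.4, 6.88 and 6.29 CPM in WT 3M and 5.12, 5.36 and 4.04 CPM in Het 3M. Every Het 3M culture lay below every WT 3M culture, by a narrow margin from S5 and S12. In WT 12M it was 7.06, 5.04, 5.80 and 6.41 CPM, and in Het 12M it ran from 2.59 through a median of 6.46 to 7 CPM. The groups aged 12 months overlapped. The log2 difference of Het from WT was −1.01 ± 0.37 at 3 months (unadjusted p = 0.0137) and −0.10 ± 0.30 at 12 months.

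Bmp5 was 18.0, 19.0, 63.1 and 34.8 CPM in WT 3M and 7.41, 3.99, 5.32 and 14.4 CPM in WT 12M. All 4 WT 12M cultures lay below all 4 WT 3M cultures. Het 3M was at 17.9, 18.9 and 12.8 CPM and Het 12M between 0.720 and 39.9, with a median of 12.4. Het 12M overlapped both WT groups, and WT 3M S5 lay above all Het 12M cultures. The log2 difference between the ages was −2.12 ± 0.78 in WT (adjusted p = 0.434) and −0.17 ± 0.75 in Het (0.28 ± 0.59 without S9 and S15, with S6 also left out of the fit), and the interaction was 1.95 ± 1.09 (unadjusted p = 0.0921).

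Gdf10, also known as Bmp3b and close in sequence to Bmp3, varied widely within groups. It was 17.6, 3.05, 581 and 401 CPM in WT 3M, 110, 103 and 437 in Het 3M and 255, 3.60, 244 and 42.2 in WT 12M. The Het 12M cultures ran from 0.832 through 13.9 to 51.7 CPM. All 6 Het 12M cultures lay below all 3 Het 3M cultures, while each WT group overlapped both. Its log2 difference was −3.60 ± 1.24 between the ages in Het (adjusted p = 0.908) and −2.93 ± 1.17 between the genotypes at 12 months (adjusted p = 0.444). The summed level of 10 chondrocyte markers was highest in the 5 cultures with the highest Gdf10. It was 10670 and 8440 CPM in WT 3M S5 and S12, 17150 in Het 3M S14 and 11090 and 22220 in WT 12M S2 and S7. In every other culture it was at most 5043 CPM. Comp was the largest part of the sum in those 5 cultures, such as 18280 CPM in S7. Not all the markers followed Gdf10. Col2a1 was 830 CPM in S2, below 1544 and 1279 CPM in Het 3M S8 and S10 and 2316 CPM in WT 12M S6. The part of chondrocytes in the Gdf10 values was not tested.

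Bmp3, an antagonist-like BMP of bone, rested on 126 counts over all 17 libraries. It was 0.164, 0, 1.15 and 0.158 CPM in WT 3M, 0, 0.0516 and 0.626 in Het 3M and 1.90, 1.10, 0.264 and 0.285 in WT 12M. Het 12M spread from 0 through 0.0519 to 0.581 CPM. The groups overlapped, and the log2 difference of −2.74 ± 1.04 between Het and WT at 12 months (adjusted p = 0.380) is a fitted value on very few counts, with 3 Het 12M cultures at 0.

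Tgfb1, the TGF-beta isoform that is most abundant in bone matrix, was 40.9, 49.7, 21.7 and 34.8 CPM in WT 3M, 37.1, 29.5 and 34.1 in Het 3M and 51.6, 173, 64.6 and 34.3 in WT 12M. In Het 12M it ran from 16.4 through 50.8 to 346 CPM. The 2 highest values were those of Het 12M S9 and WT 12M S6, the cultures with the highest macrophage and Schwann marker sums. Its log2 difference between the ages in Het was 1.47 ± 0.77, and without S9 it was 0.32. Of the 14 ligands, 12 had a lower fitted level in Het than in WT at 3 months (median −0.60) and 11 at 12 months (median −0.55), with 1 and 2 at an unadjusted p under 0.05. Without S6, S9 and S15, 8 of 14 were lower at 12 months and their median was −0.09.

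**Figure D2:**
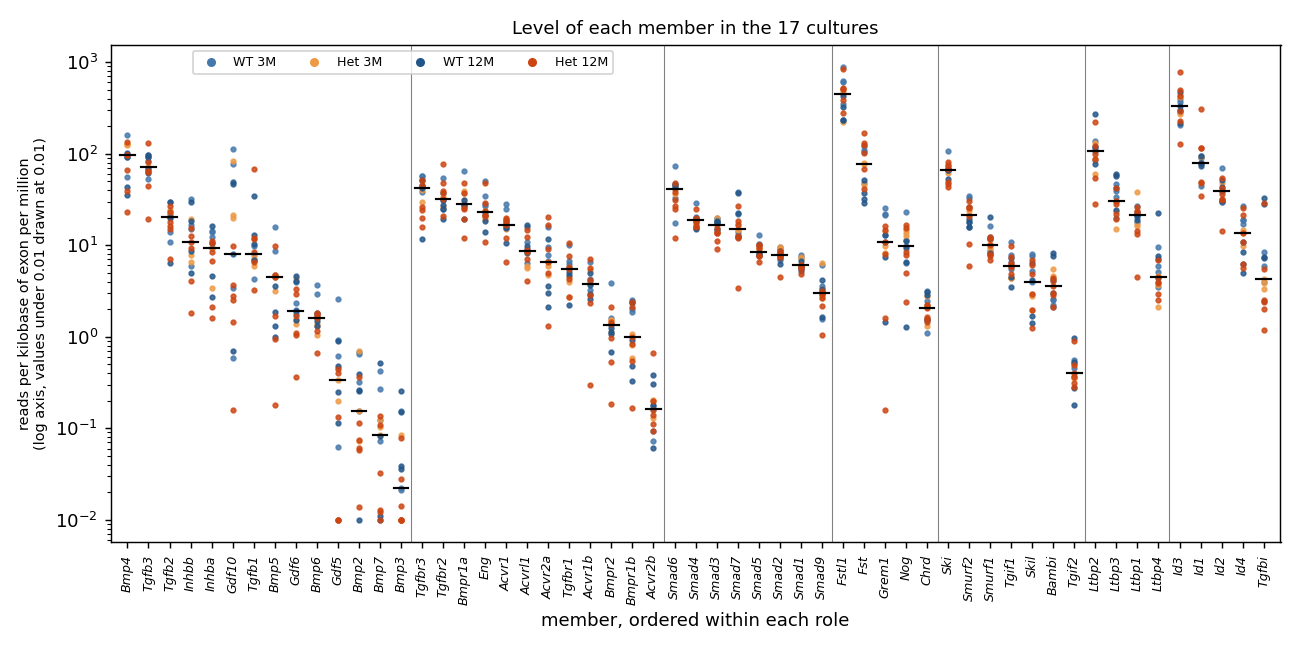
Level of each gene in the 17 cultures (points, coloured by group) in RPKM on a log axis, with genes ordered by median within each role and a bar at the median. Fstl1 and Id3 have the highest medians, 454 and 329, and the ligand Bmp3 the lowest, 0.0222.

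Among the receptors, Tgfbr3, the co-receptor betaglycan, had the highest median level at 42.3 RPKM, followed by the type II TGF-beta receptor Tgfbr2 at 31.8 and the type I BMP receptor Bmpr1a at 28.3. The lowest was the activin receptor Acvr2b at 0.161 RPKM. Tgfbr3 was 248, 371, 374 and 293 CPM in WT 3M, 262, 196 and 326 in Het 3M and 292, 76.3, 277 and 339 in WT 12M, and between 102 and 341 with a median of 165 in Het 12M. Its groups overlapped in every pair, with the lowest value in WT 12M S6.

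Tgfbr1 (chr4:47353222-47414926), the type I receptor that relays TGF-beta to Smad2 and Smad3, was 41.0, 36.9, 65.1 and 44.4 CPM in WT 3M and 26, 29.6 and 17.7 CPM in Het 3M. No Het 3M culture reached the lowest WT 3M culture. It was 33.5, 30.6, 14.3 and 36.6 CPM in WT 12M, also below all WT 3M cultures, and ran from 17.6 through 36.9 to 68.5 CPM in Het 12M. The log2 difference of Het from WT was −0.94 ± 0.40 at 3 months (unadjusted p = 0.0314) and 0.46 ± 0.33 at 12 months (unadjusted p = 0.184). The interaction was 1.40 ± 0.52 (unadjusted p = 0.0156, adjusted p = 0.586).

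Eng (chr2:32646595-32682669), the TGF-beta co-receptor endoglin, was 115, 109, 141 and 203 CPM in WT 3M, 94.8, 84.0 and 78.8 in Het 3M and 57.0, 94.0, 87.1 and 75.0 in WT 12M. The Het 12M cultures ran from 44.1 through 90.4 to 194 CPM. WT 3M lay above both Het 3M and WT 12M without overlap. The log2 difference between the ages in WT was −0.86 ± 0.33 (unadjusted p = 0.0192, adjusted p = 0.462), that of Het from WT at 3 months was −0.73 ± 0.36 (unadjusted p = 0.0611), and the interaction was 1.13 ± 0.47 (unadjusted p = 0.0286). Eng is also a gene of endothelial cells. The sum of 10 endothelial markers was 102.9 CPM in WT 3M S5, 50.3 and 39.4 CPM in Het 3M S8 and S10, and at most 20.4 CPM elsewhere. The culture with the highest Eng in WT 3M, S12, had a sum of 13.1 CPM. In it Cdh5 and Pecam1 were at 0.0791 CPM each, while Erg was at 6.29 and Tek at 4.11 CPM. The part of endothelial cells in the Eng values was not tested.

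The type I BMP receptor Bmpr1b was 11.8, 13.9, 11.1 and 15.2 CPM in WT 3M and 6.32, 4.85 and 3.47 CPM in Het 3M, and the activin type II receptor Acvr2a was 38.3, 54.9, 89.9 and 44.9 CPM against 33.5, 37.2 and 26.7 CPM. Both had all Het 3M cultures below all WT 3M cultures. Their log2 differences were −1.41 ± 0.71 (unadjusted p = 0.0648) and −0.81 ± 0.69 (unadjusted p = 0.256). At 12 months those of Het from WT were 0.17 ± 0.59 and 0.95 ± 0.59. Of the 12 receptors, 11 had a lower fitted level in Het at 3 months (median −0.47), Acvr2b being the exception, while at 12 months 3 were lower and 9 higher (median 0.09, and 0.40 without S6, S9 and S15). Between 12 and 3 months in WT, 10 of 12 were lower (median −0.55). Tgfbr2 was the only receptor with an unadjusted p under 0.05 between the genotypes at 12 months, at 0.72 ± 0.30 (adjusted p = 0.480), with its highest value, 638 CPM, in S9.

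**Figure D3:**
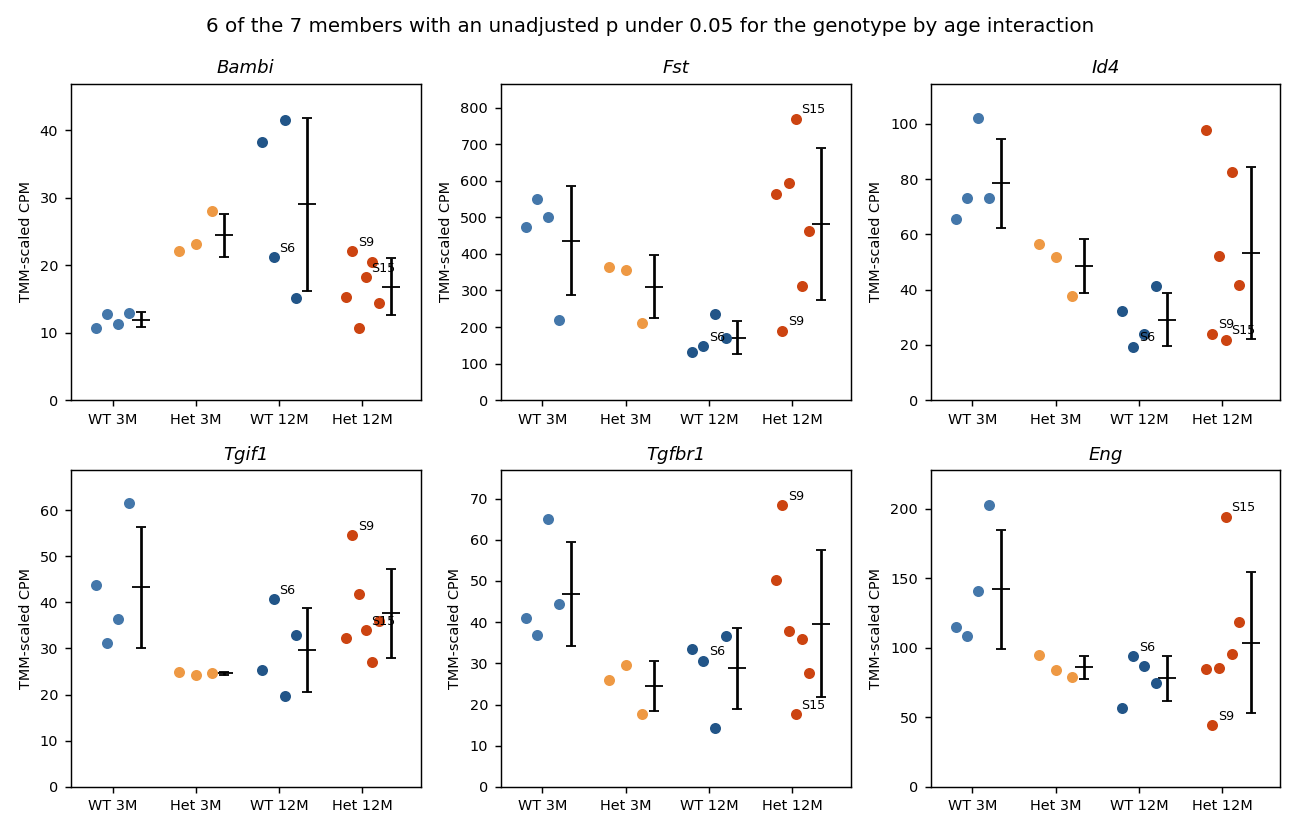
TMM-scaled CPM of 6 genes with an unadjusted p under 0.05 for the genotype by age interaction (vertical axes, from 0), 1 point per culture, with mean ± SD to the right of each group and S6, S9 and S15 labelled. Bambi lies higher in Het 3M than in WT 3M and the other 5 genes lie lower in Het 3M on average.

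Between Het and WT, the log2 differences of the 8 Smads lay between −0.55 and 0.23 over both ages. Smad6, an inhibitory Smad that acts mainly on BMP receptors, had the highest median, 41.2 RPKM, and Smad9 the lowest, 2.99 RPKM. Smad6 was 145, 105, 56.6 and 236 CPM in WT 3M, 132, 117 and 145 in Het 3M and 134, 150, 146 and 136 in WT 12M, and between 38.4 and 152 with a median of 93.7 in Het 12M. Its groups overlapped, and its log2 difference between Het and WT at 12 months was −0.55 ± 0.34 (unadjusted p = 0.119).

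Smad3 (chr9:63646766-63757994), which carries TGF-beta and activin signals, was 110, 106, 83.5 and 97.0 CPM in WT 3M, 100, 92.9 and 110 in Het 3M and 99.0, 101, 99.3 and 82.0 in WT 12M. Het 12M spread from 49.9 through 75.9 to 85.7 CPM. All Het 12M cultures lay below all Het 3M cultures, while S16 of Het 12M lay above S13 of WT 12M. The log2 difference between the ages was −0.51 ± 0.17 in Het (unadjusted p = 0.00799, adjusted p = 0.908) and −0.06 ± 0.17 in WT. Het and WT differed by −0.43 ± 0.16 at 12 months (unadjusted p = 0.0145, adjusted p = 0.380), by −0.25 ± 0.15 at 12 months without S6, S9 and S15 (unadjusted p = 0.121), and by 0.03 ± 0.19 at 3 months.

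At 3 months 4 of 8 Smads were lower and 4 higher in Het, with differences between −0.47 for Smad7 and 0.23 for Smad9. Smad1 and Smad5, the main BMP Smads, and Smad2 had log2 differences between −0.14 and 0.04 between Het and WT at both ages. For Smad1 the 95% interval of the log2 difference ran from −0.36 to 0.37 at 3 months and from −0.36 to 0.25 at 12 months. Smad4, the shared partner, had differences of −0.29 ± 0.20 at 3 months and 0.10 ± 0.17 at 12 months.

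Among the extracellular antagonists and binding proteins, Fstl1, a secreted follistatin-like glycoprotein, had the highest median of all 55 genes, 454 RPKM. It was 3048, 4318, 2984 and 1701 CPM in WT 3M, 2229, 2333 and 1078 in Het 3M and 1143, 1596, 1139 and 2077 in WT 12M. In Het 12M it ran from 1362 through 2523 to 4164 CPM. The groups overlapped in every pair, and the log2 difference between the ages in WT was −1.02 ± 0.40 (adjusted p = 0.465), with an interaction of 1.43 ± 0.57 (adjusted p = 0.644).

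Fst (chr13:114452262-114458989) encodes follistatin, which binds activins and blocks their receptor contact. It was 473, 550, 502 and 218 CPM in WT 3M, 364, 356 and 211 in Het 3M and 132, 147, 235 and 169 in WT 12M. The Het 12M cultures ran from 190 through 513 to 770 CPM. All Het 12M cultures but S9 lay above all 4 WT 12M cultures, and S9 was within their range. Het and WT differed by 1.495 ± 0.36 on the log2 scale at 12 months (unadjusted p = 0.000682, adjusted p = 0.127) and by −0.49 ± 0.41 at 3 months. The difference between the ages was −1.35 ± 0.38 in WT (adjusted p = 0.351) and 0.64 ± 0.38 in Het, and the interaction was 1.99 ± 0.54 (adjusted p = 0.381). With DESeq2, Fst passed the threshold between Het and WT at 12 months, at 1.51 ± 0.37 with an adjusted p of 0.0142, where 0.712% of all genes did.

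Grem1, the BMP antagonist gremlin, lay at 0.654 CPM in S15, 6 in S6 and 6.69 in S9, against 30.5 to 106 CPM in the other 14 cultures. Nog and Chrd, which encode the BMP antagonists noggin and chordin, had medians of 9.79 and 2.06 RPKM and log2 differences between −0.85 and 0.40 over the 5 comparisons. At 3 months 4 of 5 genes of this role were lower in Het (median −0.49), and at 12 months 4 of 5 were higher (median 0.40).

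**Figure D4:**
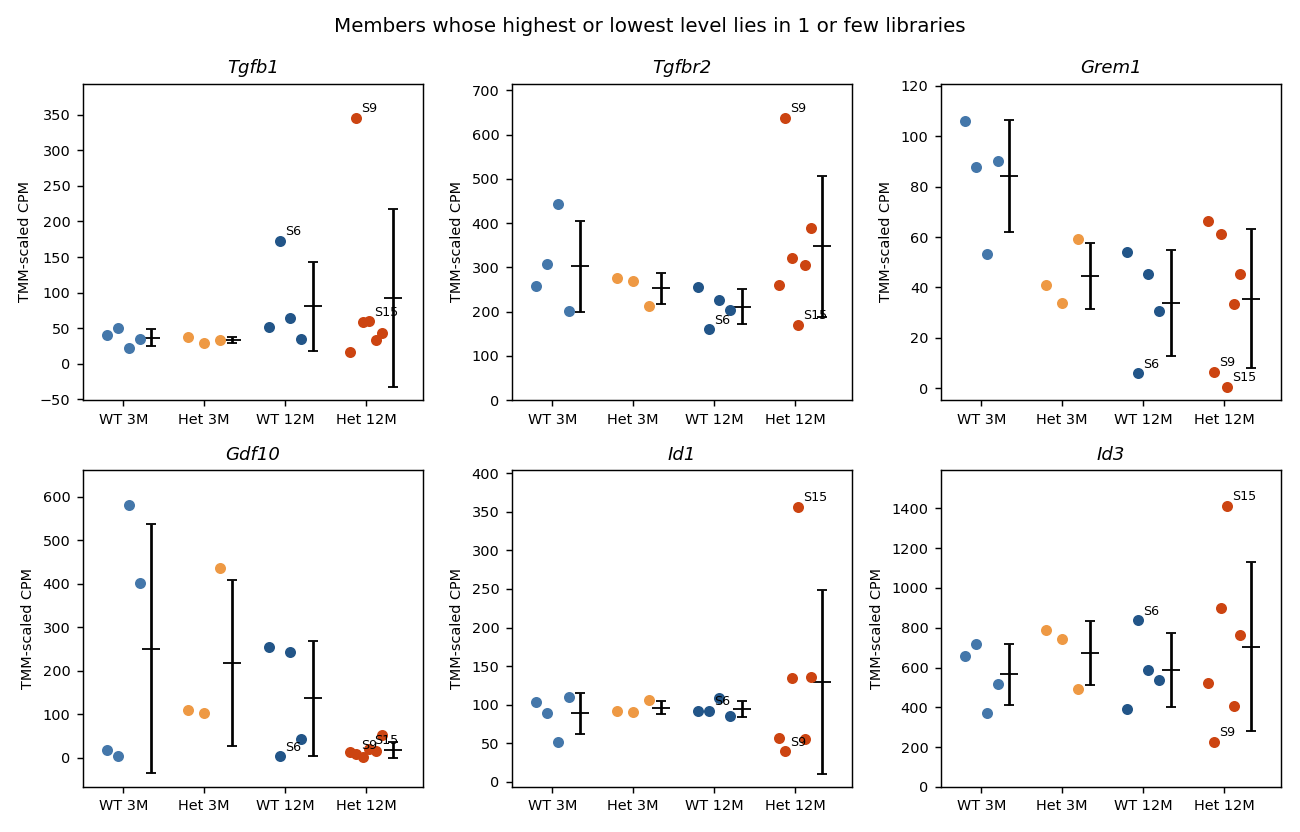
TMM-scaled CPM of 6 genes whose extreme values lie in a few cultures (vertical axes), 1 point per culture, with mean ± SD to the right of each group and S6, S9 and S15 labelled. Tgfb1 reaches 346 in S9 and 173 in S6, Id1 reaches 356 in S15, and Grem1 is lowest in S15, S6 and S9.

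Among the intracellular and decoy regulators, Bambi encodes a membrane protein that resembles a type I receptor but lacks the kinase domain, and that dampens TGF-beta and BMP signalling. It was 10.7, 12.7, 11.2 and 13 CPM in WT 3M, 22.0, 23.1 and 28.1 in Het 3M and 38.3, 21.2, 41.5 and 15.2 in WT 12M. Het 12M spread from 10.6 through 16.8 to 22.0 CPM. WT 3M was the lowest group, with every Het 3M and every WT 12M culture above all of its cultures, while Het 12M overlapped WT 3M and WT 12M. Bambi had the smallest p of the 55 genes between the genotypes at 3 months, between the ages in WT and for the interaction.

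The log2 difference of Bambi between Het and WT was 1.04 ± 0.31 at 3 months (unadjusted p = 0.00435, adjusted p = 1) and −0.79 ± 0.26 at 12 months (unadjusted p = 0.00838, adjusted p = 0.324). Between 12 and 3 months it was 1.29 ± 0.30 in WT (unadjusted p = 0.000478, adjusted p = 0.241) and −0.54 ± 0.29 in Het (unadjusted p = 0.0787). The interaction was −1.82 ± 0.41, with a 95% interval from −2.69 to −0.96 (unadjusted p = 0.000374, adjusted p = 0.338). Leaving out each culture in turn kept the interaction between −2.06 and −1.61. With DESeq2, Bambi passed the threshold between the ages in WT (adjusted p = 0.0201, with 0.356% of all genes called) and for the interaction (adjusted p = 0.0262, with 0.235% of all genes called). Without S6, S9 and S15, edgeR gave −2.11 ± 0.43 for the interaction (adjusted p = 0.0733).

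Tgif1 (chr17:70844205-70853532), a homeodomain repressor that binds Smad2 and Smad3, was 43.9, 31.3, 36.5 and 61.5 CPM in WT 3M and 24.9, 24.3 and 24.7 CPM in Het 3M. All Het 3M cultures lay below all WT 3M cultures and close to each other. It was 25.4, 40.6, 19.7 and 32.9 CPM in WT 12M and ran from 27.1 through 35 to 54.5 CPM in Het 12M, where every culture lay above all Het 3M cultures. The log2 difference of Het from WT was −0.81 ± 0.29 at 3 months (unadjusted p = 0.0117, adjusted p = 1) and 0.34 ± 0.24 at 12 months. Between the ages it was −0.54 ± 0.26 in WT and 0.61 ± 0.27 in Het (unadjusted p = 0.036, adjusted p = 0.908), and the interaction was 1.16 ± 0.37 (unadjusted p = 0.0068, adjusted p = 0.494).

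Skil encodes SnoN, a corepressor that binds Smads, and Ski its relative. Skil was 50.3, 38.7, 73.8 and 77.9 CPM in WT 3M, 28.3, 26.9 and 19.2 in Het 3M and 16.3, 62.0, 13.7 and 40.0 in WT 12M. In Het 12M it ran from 12.2 through 37.3 to 66.8 CPM. Het 3M lay below WT 3M without overlap, and both groups aged 12 months overlapped both. The log2 difference at 3 months was −1.28 ± 0.57 (unadjusted p = 0.0376).

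Ski had the highest median of this role, 66.7 RPKM. It was 410, 367, 365 and 591 CPM in WT 3M, 402, 338 and 383 in Het 3M and 296, 375, 371 and 366 in WT 12M, and between 240 and 447 with a median of 327 in Het 12M. All groups overlapped, and its log2 differences lay between −0.30 and 0.14. Smurf1 and Smurf2, ubiquitin ligases that act on Smads and receptors, and Tgif2, a relative of Tgif1, had log2 differences between −0.70 and 0.46. At 3 months 6 of 7 genes of this role were lower in Het, with Bambi the exception.

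The latent TGF-beta binding proteins hold TGF-beta in the extracellular matrix. Ltbp2, a family member that does not bind latent TGF-beta itself, had the highest median, 107 RPKM. It was 1128, 894, 701 and 978 CPM in WT 3M, 714, 490 and 1061 in Het 3M and 623, 2224, 876 and 962 in WT 12M, and between 233 and 1832 with a median of 766 in Het 12M. All groups overlapped, with the highest value in S6 and the lowest in S9.

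Ltbp4 (chr7:27305140-27339720) was 32.8, 61.9, 22.4 and 38.6 CPM in WT 3M, 23.5, 13.6 and 29.8 in Het 3M and 28.5, 147, 49.4 and 45.2 in WT 12M. The Het 12M cultures ran from 16.3 through 25.3 to 44.6 CPM. All WT 12M cultures but S2 lay above all Het 12M cultures. The log2 difference at 12 months was −1.34 ± 0.41 (unadjusted p = 0.00434, adjusted p = 0.255), and without S6, the culture at 147 CPM, it was −0.63. All 4 genes of this role had a lower fitted level in Het at 12 months (median −0.58, or 3 of 4 and −0.40 without S6, S9 and S15) and 3 of 4 at 3 months (median −0.19). At 12 months Ltbp3 differed by −0.69 ± 0.35 (unadjusted p = 0.0696).

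The target genes Id1 to Id4 encode inhibitors of basic helix-loop-helix transcription factors and are textbook BMP targets, and Tgfbi encodes a matrix protein induced by TGF-beta. Id3 had the highest median, 329 RPKM. It was 660, 717, 372 and 515 CPM in WT 3M, 787, 744 and 491 in Het 3M and 392, 838, 590 and 537 in WT 12M, and between 228 and 1414 with a median of 642 in Het 12M. Its groups overlapped, and its log2 differences lay between 0.01 and 0.26, with SE between 0.39 and 0.60. The highest Id3 and Id1 values, 1414 and 356 CPM, were both in S15, and the lowest Id3 and Id1 values, 228 and 40.1 CPM, were both in S9.

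Id4 (chr13:48261116-48266028) was 65.7, 73.3, 102 and 73.0 CPM in WT 3M, 56.5, 51.7 and 37.6 in Het 3M and 32.2, 19.3, 23.8 and 41.2 in WT 12M. Het 12M spread from 21.9 through 46.8 to 97.8 CPM. WT 3M lay above Het 3M and above WT 12M without overlap, and Het 12M overlapped each of the other groups. The log2 difference between the ages was −1.43 ± 0.41 in WT (unadjusted p = 0.00271, adjusted p = 0.351) and 0.13 ± 0.40 in Het. Het and WT differed by −0.69 ± 0.44 at 3 months and by 0.87 ± 0.37 at 12 months (unadjusted p = 0.0326, adjusted p = 0.486), and the interaction was 1.56 ± 0.57 (unadjusted p = 0.0149, adjusted p = 0.582). Id1, Id2 and Id3 had no comparison with an unadjusted p under 0.05. Tgfbi had 106 CPM in S6, 125 in S13 and 109 in S9 against at most 31.9 CPM in every other culture, and its log2 difference between the ages in WT was 1.87 ± 0.84 (adjusted p = 0.503).

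Promoter windows were available for 39 of the 55 genes, as 51 RefSeq windows of 300 bases on GRCm38.p6 from 250 before to 50 after an annotated start. They were searched on both strands for 3 Smad-related letter strings, each as given. The palindrome GTCTAGAC, known as a Smad-binding element, was in 1 of the 51 windows (1.96%) and in 0.213% of all 32851 windows. The Smad box GTCTG, whose reverse complement is CAGAC and which does not occur within the other strings, was in 25 windows (49.0%) and in 49.6% of all windows. The palindrome GGCGCC, known from Smad1 and Smad5 binding, was in 17 windows (33.3%), of 15 genes, and in 11.9% of all windows. It consists of G and C alone, and the windows were not matched for their content of these bases. Windows of 1 gene can also overlap, as for Smad5 and Ltbp4. The share of GGCGCC is therefore not read as an excess of Smad sites.

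The 1 window with GTCTAGAC was that of Smad6, where the string starts 4 bases before the start site. The windows of Smad6, Id2, Id3 and Id4 are printed up to 4 bases after the start, 5′ to 3′ on the strand of the gene, since Smad6 holds that string and since Id4 differed from Id2 and Id3 in its values. Capitals mark GTCTAGAC in Smad6 (chr9:64022056-64022309, minus strand) and GGCGCC in Id2 (chr12:25096089-25096342, minus strand) and in Id4 (chr13:48260866-48261119, plus strand). Id3 (chr4:136143572-136143825, plus strand) held neither.
Smad6: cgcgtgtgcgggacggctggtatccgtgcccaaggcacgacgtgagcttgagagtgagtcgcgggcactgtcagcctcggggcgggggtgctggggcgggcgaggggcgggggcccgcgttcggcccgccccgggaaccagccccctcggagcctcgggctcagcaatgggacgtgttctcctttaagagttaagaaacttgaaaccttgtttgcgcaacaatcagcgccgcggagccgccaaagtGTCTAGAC
Id2: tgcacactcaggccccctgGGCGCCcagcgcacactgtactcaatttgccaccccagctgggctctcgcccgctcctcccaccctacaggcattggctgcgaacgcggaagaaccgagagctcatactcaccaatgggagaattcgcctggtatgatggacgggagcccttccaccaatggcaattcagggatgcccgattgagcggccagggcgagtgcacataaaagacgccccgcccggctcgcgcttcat
Id3: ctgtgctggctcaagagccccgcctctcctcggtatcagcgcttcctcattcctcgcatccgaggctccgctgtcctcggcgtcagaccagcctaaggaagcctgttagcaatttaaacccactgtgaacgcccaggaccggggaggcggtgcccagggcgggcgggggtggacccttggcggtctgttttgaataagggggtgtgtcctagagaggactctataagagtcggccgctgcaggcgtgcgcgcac
Id4: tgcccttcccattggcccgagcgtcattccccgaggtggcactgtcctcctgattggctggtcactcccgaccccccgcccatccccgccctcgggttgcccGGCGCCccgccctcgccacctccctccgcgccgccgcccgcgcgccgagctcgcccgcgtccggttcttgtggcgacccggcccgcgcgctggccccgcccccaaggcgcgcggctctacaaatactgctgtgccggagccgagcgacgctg
GGCGCC starts 231 bases before the start in Id2 and 148 bases before it in Id4, so the string occurs in Id4, with an unadjusted p under 0.05 in 3 comparisons, and in Id2, with none. A match of letters is a description and no measurement of binding.

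Other genes of both pathways were listed by role, 112 in all, of which 92 were tested. Of these, 63 (68.5%) had a lower fitted level in Het at 3 months, against 52.5% of all genes (median −0.17). At 12 months 53 (57.6%) were lower in Het, against 44.4% of all genes (median −0.14), and between the ages in WT 47 (51.1%) were lower, against 46.2% (median −0.01). None passed the threshold in any comparison. An unadjusted p under 0.05 was found for 1 of the 92 (1.09%) at 3 months, 11 (12%) at 12 months and 6 (6.52%) between the ages in WT, against 2.03%, 9.52% and 9.57% of all genes. The smallest adjusted p belonged to Chrdl2, a chordin-like BMP antagonist, at 12 months, with a log2 difference of −4.82 ± 1.04 (adjusted p = 0.0771). The next smallest at 12 months was that of Nedd4l, a ubiquitin ligase that acts on Smad2 and Smad3, at −0.84 ± 0.21 (adjusted p = 0.153). All its Het 12M cultures lay below all WT 12M cultures. At 3 months the 1 gene was Pmepa1, a TGF-beta target that limits Smad signalling, at −1.67 ± 0.77 (adjusted p = 1).

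**Figure D5:**
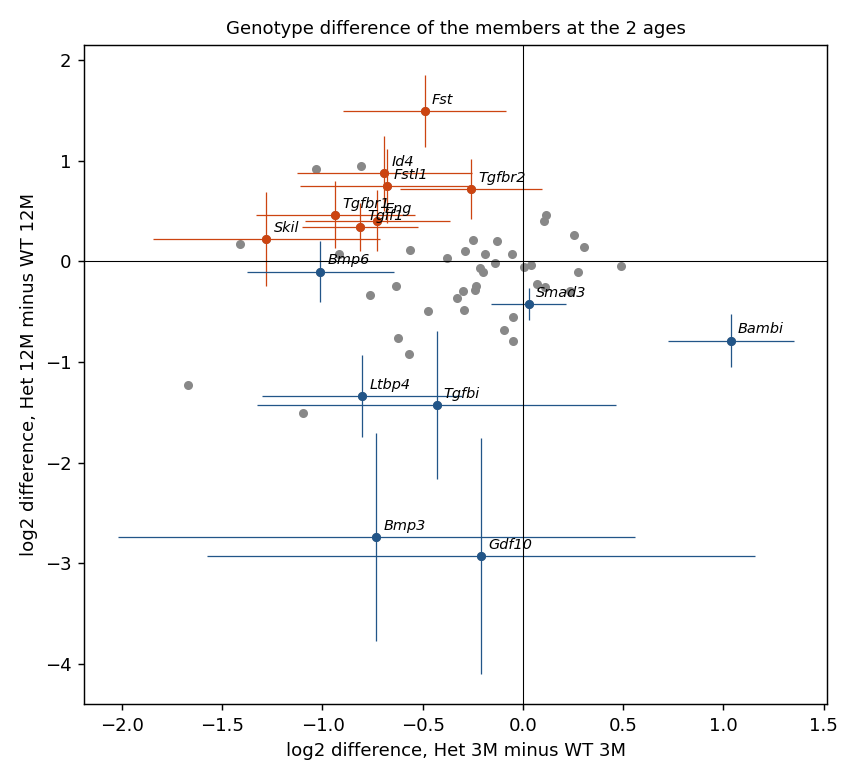
Log2 difference of Het from WT at 3 months (horizontal axis) against that at 12 months (vertical axis) for the 55 genes, with SE bars and names for 15 genes and grey points for the rest. Bambi is at 1.04 and −0.79, and Fst, Id4, Fstl1, Tgfbr1, Tgif1, Eng, Skil and Tgfbr2 are below 0 at 3 months and above 0 at 12 months.

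The number of calls differed between tools. The limma voom fit with sample quality weights called 14 of the 55 genes between Het and WT at 3 months, where it called 8.67% of all genes. Bambi (adjusted p = 0.00174) and Tgfb2 (adjusted p = 0.0316) were higher in Het in that fit, and the other 12 were lower, led by Bmp6 (adjusted p = 0.00146), Tgif1 (adjusted p = 0.00306) and Bmpr1b (adjusted p = 0.0109). Its weights were 8.88, 2.95 and 0.695 for Het 3M S8, S10 and S14. They were 7.32, 1.96, 0.306 and 0.937 for WT 3M S3, S4, S5 and S12. S8 and S3 thus had the largest weights in the comparison at 3 months. The lowest weight of all cultures was 0.118, for Het 12M S15. Voom was run only with weights, so the part of the weights in these calls was not tested. The same fit called 2 genes between the genotypes at 12 months (Fst and Bambi), against 1.15% of all genes. It called 13 between the ages in WT, against 10.1% of all genes, 0 between the ages in Het, against 0.00671%, and 9 for the interaction, against 6.3%. Bambi was called in 4 of these 5 comparisons. Chi-square per degree of freedom between S8 and S10 was 18.5, the smallest of 136 pairs of cultures and above counting error, and with both counted as 1 sample edgeR again called 0 of the 55 genes.

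Without S6, S9 and S15, edgeR called 0 of the 55 genes, and more of them had an unadjusted p under 0.05. At 3 months the number was 10 of the 55, where 4.89% of all genes had one, and at 12 months 9 of the 55, where 12.8% had. The groups aged 3 months held the same cultures in both fits. Their numbers could change only through the filter, the scaling and the spread that all groups share. For Grem1 the SE at 3 months was 0.89 with all cultures and 0.30 without S6, S9 and S15. Between the ages it was 16 of the 55 in WT, where 16% of all genes had one, and 4 of the 55 in Het, where 3.74% had. For the interaction it was 18 of the 55, where 14% of all genes had one. Of the 8 genes at 12 months with an unadjusted p under 0.05 in all cultures, Bmp3, Tgfbr2 and Smad3 no longer had one, and neither did Tgif1 between the ages in Het. The fitted direction turned for 13 of the 55 genes at 12 months, 8 between the ages in WT, 14 between the ages in Het and 11 for the interaction. At 3 months it turned for 0, but there the cultures compared were the same, so this is no check of that comparison. The smallest adjusted p values for the interaction were those of Bambi, Skil (0.083), Id4 (0.0848) and Fst (0.0986). Skil had an interaction of 2.38 ± 0.54 in that fit, against 1.504 ± 0.73 (unadjusted p = 0.0556) with all 17 cultures. Over the 17 cultures, S9 and S15 each held the lowest level of 16 of the 55 genes, and S12 of WT 3M held the highest level of 15. The share of all genes with their extreme in these cultures was not counted, so these numbers describe the 55 genes alone.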

How the data were processed

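The authors deposited raw counts per Entrez gene, and per the submitters' processing notes these were made with Subread and featureCounts on mm10, with versions, annotation, strand setting and treatment of multi-mapping reads not given in the sources used here. TruSeq RNA v2 libraries, per the labels, do not mark strand, so reads of overlapping antisense genes cannot be told apart. The table has 68 columns, 4 technical replicates of each of 17 cultures. Between technical replicates chi-square per degree of freedom lay between 1.0 and 1.09, so they were summed. The series text names 3 biological samples per group, the labels give 3 to 6, and all were used. The labels do not say whether cultures came from separate mice, so p-values measure only the spread between these cultures. Symbols came from RefSeq on GRCm38.p6 (25275 identifiers matched, 1904 with 0.573% of counts unmatched but kept in the fit) and exon lengths from GENCODE on the same build, used only to compare levels between genes.

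Depth ran from 13687876 to 28597221 counts per culture, both in Het 12M. With R 4.3.3 and edgeR 4.0.16, filterByExpr kept 14897 genes. A model with 1 term per group was fitted to all cultures after TMM scaling, with no sex term, since Xist, Y-linked genes or both went against the label in WT 12M. Tests were edgeR's 2-sided quasi-likelihood F-tests, with Benjamini-Hochberg adjustment over all genes and a threshold of 0.05. The biological coefficient of variation was 0.512. SE was the log2 difference over the square root of F. The scripts were tested on simulated data. Alternatives were DESeq2 1.42.0, limma 3.58.1 (voom with quality weights), RLE scaling, library totals, no filter, at least 1 CPM in 3 samples, a term for labelled sex or a covariate for Y-linked genes, only the groups compared, leaving out S6, S9 and S15 together, and leaving out each culture in turn. The earlier edgeR quasi-likelihood method, and S8 and S10 as 1 sample, were added after the data were seen. Values per culture are given for the first 5 of the 55 genes by p in every comparison, the gene with the highest RPKM in each role, and Ezh2; other genes were chosen after their values were seen. The 55 genes, the other lists and the rule were chosen with earlier results of these data known, in which Bambi, Tgif1, Bmp6 and Tgfbr1 had been named.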

Additional observations from a re-analysis of the deposited data

Results flagged for a closer look

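There were 66 sets of 4 or 6 cultures, made of 22 genes with values per culture in WT 3M, WT 12M and Het 12M. In 7 of them the highest or lowest culture stood far from the rest. Chance gives about 1 in 20 sets only for independent values with a normal spread. The genes share cultures and CPM need not spread in that way, so the 7 sets are not read as an excess. Tgfb1 was at 345.6 CPM in Het 12M S9, with 16.4 to 59.78 CPM in the other 5 cultures, and S9 also had the highest macrophage marker sum, 37150 CPM; the part of those cells was not tested. Gdf10 was at 51.66 CPM in Het 12M S17, with 0.8323 to 19.1 CPM in the others. Smad3 was at 81.99 CPM in WT 12M S13, below 98.98 to 101.1 CPM. Ski was at 296.3 CPM in WT 12M S2, below 365.6 to 374.9 CPM. Bmp3 was at 1.154 CPM in WT 3M S5, with 0 to 0.164 CPM in the others, and at 0.5807 CPM in Het 12M S1, with 0 to 0.2069 CPM in the others, all at very low counts. Ezh2 was at 9.174 CPM in WT 3M S12, below 13.45 to 14.28 CPM.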

How the results depend on the processing

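No paired analysis was possible because each S number occurs in 1 group only and the technical replicate numbers mark repeat runs of 1 culture. The number of the 55 genes called stayed at 0 in every edgeR fit, leave-one-out fits included. DESeq2 called 1 of the 55 between Het and WT at 12 months, 1 between the ages in WT and 1 for the interaction, where it called 106, 53 and 35 of all genes, and 1 gene between the ages in Het. Voom with quality weights called 14 of the 55 at 3 months, 2 at 12 months, 13 between the ages in WT and 9 for the interaction, where it called 1292, 171, 1508 and 939 of all genes, and 1 gene between the ages in Het. Of all genes, edgeR called 10 between Het and WT at 12 months. It called 16 with no filter, and 0 with 1 CPM in 3 samples, with only the groups compared, with the earlier quasi-likelihood method and without S6, S9 and S15. Leaving out 1 culture gave 0 to 39 at 12 months and 0 to 2 between the ages in WT. The 39 were without WT 12M S13, and 33 were called without WT 12M S7. Without S6, S9 and S15, 2 genes were called between the ages in WT and 10 for the interaction. The median of the 55 genes was then 0.144 at 12 months, against −0.067, and 0.307 for the interaction, against 0.091. Leaving out 1 culture kept the median at 3 months between −0.416 and −0.229 and moved that of the interaction between −0.021 and 0.219. Every alternative was run for Ezh2, Bambi, Fst, Id4 and Tgif1 and, for other genes, where they were among the first 5 by p in a comparison. Among these, directions turned for Ezh2 at 12 months (0.205 with voom, 0.08 without S6, S9 and S15, and −0.431 to 0.284 leaving out 1 culture), Id4 between the ages in Het (−0.06 with voom, −0.132 to 0.292 leaving out 1 culture) and Ezh2 between the ages in WT (−0.055 with voom, against 0.652 ± 0.387 with edgeR). The cause was not tested. Of all 55 genes, 13 turned direction at 12 months without S6, S9 and S15. With the labelled sex term or the Y-linked covariate no direction turned among the genes for which every alternative was run. RLE scaling and library totals kept 42 of the 55 genes lower at 3 months, and the median of all genes shifted by under 0.1. The number of cultures, 3 to 6 a group, limits the precision, and depth limits the lowest genes, such as Bmp3 with 126 counts in all.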
